A study of Mus musculus with 9 samples.

Results

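Ammonia disposal and the breakdown of amino acids were followed in the liver of C57BL/6 mice, a standard inbred laboratory strain (C57BL6/J in the study's methods), through 43 genes taken by symbol from the 33211 genes of the deposited table. The genes cover the urea cycle, the aminotransferases and the breakdown of the aromatic, branched-chain, sulfur, glycine and histidine amino acids, and were chosen by function. All animals received a high-fat diet (HFD), and no group fed another diet was part of the comparison. The groups differed in how the opened diet was kept: in a freezer at -20 °C for HFDfre (5 libraries) and in a fridge at 4 °C for HFDfri (4 libraries), for 7 days before use per the study's methods. Per the same methods, male wild-type mice were 8 weeks old when the diet began and were fed it for 7 weeks. It asks whether storage of the food alters hepatic transcripts.

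The liver is the only organ with a complete urea cycle at high activity. Amino acids lose their nitrogen to glutamate and aspartate through aminotransferases, the nitrogen enters the cycle as ammonia and aspartate, and urea leaves for the kidney, while the carbon skeletons go on to glucose or ketone bodies. Most of these steps run in periportal hepatocytes, whereas glutamine synthetase and ornithine aminotransferase mark the hepatocytes around the central vein. Many of the genes are induced by glucagon and glucocorticoids during fasting and by protein intake.

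Library totals ran from 58614917 to 69353439 estimated counts. A ribosomal RNA-like locus took 0.466% to 11.1% of the counts, and mitochondrially encoded genes took 11.4% to 19.8% in HFDfre and 8.93% to 13.6% in HFDfri. The defining hepatocyte markers were abundant in every library, with Alb at 52055 to 75721 CPM (counts scaled to library size). Of 6 pancreatic acinar markers 4 had no count in any library. Every one of the 43 genes passed the filter on low counts, the lowest single value being 445 counts, for Sdsl. Together they took 1.82% to 2.15% of the counts in HFDfre and 1.57% to 2.40% in HFDfri. In bulk tissue, fewer cells of a type and less RNA per cell cannot be told apart.

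Per kilobase of exon, the urea cycle enzyme Ass1 had the highest mean level, at 1052 CPM per kb over the 9 libraries. It was followed by Hpd of tyrosine breakdown at 898, the cysteine dioxygenase Cdo1 at 869 and the arginase Arg1 at 764 CPM per kb. Sdsl at 6.28 and the glycine cleavage subunit Amt at 7.76 CPM per kb were the lowest. The median spread between libraries was below that of all tested genes, which were not matched to these genes for level. The median standard deviation of log2 CPM was 0.14 over these genes in HFDfre and 0.20 in HFDfri, against 0.21 and 0.27 over all tested genes. The largest was that of Tat in HFDfri, at 1.12.

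Between the groups, Prodh2 was the gene that changed by the adjusted test. In the edgeR fit 1 of the 43 genes had an adjusted p under 0.05, and it was lower in HFDfri, where 1.05% of all 14220 genes tested passed (0.499% higher and 0.556% lower). By an unadjusted p under 0.05, 7 genes were found, 1 higher and 6 lower, where 21.2% of all genes passed. Separate ranges in HFDfre and HFDfri were seen for 4 genes, all lower in HFDfri, where 7.69% of all genes had them (4.02% higher and 3.66% lower). No test of the 43 genes as a list was made, and these counts are given as a description. The median log2 fold change, as HFDfri minus HFDfre, was -0.05 over the 43 genes and -0.01 over all tested genes, with 17 genes above 0 and 26 below, where 49.1% of all genes were above 0. The median size of the fold change regardless of sign was 0.14 and 0.21.

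**Figure D1:**
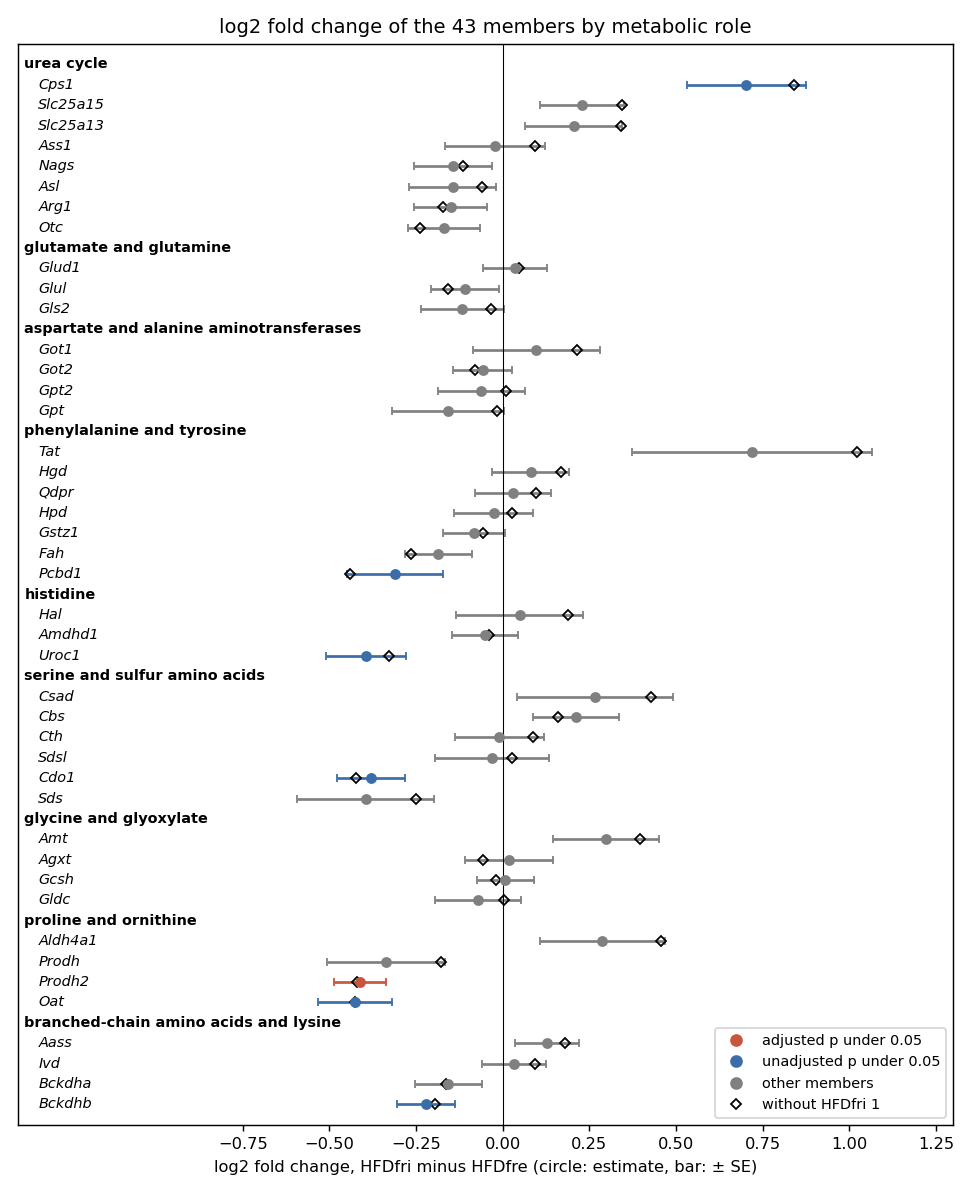
The horizontal axis gives the log2 fold change of each of the 43 genes, as HFDfri minus HFDfre, with a circle for the estimate, a bar for ± SE and an open diamond for the estimate without the library HFDfri 1, and the genes stand in rows by metabolic role. Prodh2 is the single gene marked as passing the adjusted test, and Cps1 and Tat lie farthest to the right.

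Prodh2 encodes hydroxyproline dehydrogenase, the mitochondrial enzyme that opens hydroxyproline breakdown. It was at 238, 237, 246, 242 and 249 CPM in HFDfre 1 to 5 and at 182, 191, 175 and 182 CPM in HFDfri 1 to 4. All HFDfri libraries were below all HFDfre libraries, and the SD of log2 CPM within HFDfre was the smallest of any of the 43 genes in that group. Its mean was 243 ± 5.12 CPM in HFDfre (SD, n = 5) and fell to 182 ± 6.58 CPM in HFDfri (SD, n = 4). The log2 fold change was -0.41 ± 0.08 (SE; edgeR adjusted p = 0.0354). This call passed in 9 of 20 alternative settings. With library totals in place of TMM scaling no member passed, where 0.534% of all genes did (0.387% higher). It was lost on leaving out any HFDfre library, HFDfri 3 or HFDfri 4, with adjusted p from 0.0524 to 0.108 by edgeR, while the fold change stayed between -0.43 and -0.39.

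Oat encodes ornithine aminotransferase, which links ornithine to glutamate semialdehyde. It was at 731, 762, 981, 792 and 847 CPM in HFDfre 1 to 5 and at 599, 651, 627 and 573 CPM in HFDfri 1 to 4. The groups did not overlap, and HFDfre 3 was the highest library. The log2 fold change was -0.43 ± 0.11 (SE) with an edgeR adjusted p of 0.0723, so the gene did not pass. It passed with DESeq2, the tool of the study, with an adjusted p of 0.00332. With DESeq2 5 of the 43 genes passed, 1 higher and 4 lower. DESeq2 called 8.41% of the 12278 genes that it gave an adjusted p (4.37% higher and 4.04% lower). Of 10 other markers of pericentral hepatocytes, 9 were lower in HFDfri, where 49.1% of all genes were above 0. Their median was -0.31 on the log2 scale, and none passed the adjusted test. Cyp2a5 was the one without overlap (mean 541 CPM in HFDfre and 285 CPM in HFDfri, edgeR adjusted p = 0.0566), where 3.66% of all genes were lower without overlap. The summed level of that list was 7869 to 9674 CPM in HFDfre and 7073 to 8206 CPM in HFDfri. Most of it was Cyp2e1, at 6323 to 8552 CPM in HFDfre and 6196 to 7178 CPM in HFDfri. Glul, the glutamine synthetase of the same cells, differed little, at 770 to 973 CPM in HFDfre and 784 to 883 CPM in HFDfri, with a log2 fold change of -0.11 ± 0.10 (SE). The part of the pericentral markers in the level of Oat was not tested.

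Prodh, the proline dehydrogenase, was at 170 to 201 CPM in HFDfre. In HFDfri it was at 92.6, 183, 138 and 177 CPM in libraries 1 to 4, so that HFDfri 1 was the lowest. Its log2 fold change was -0.34 ± 0.17 (SE) with an edgeR adjusted p of 0.279, and was -0.18 without HFDfri 1. Aldh4a1, which takes the product of both proline and ornithine on to glutamate, had a positive log2 fold change of 0.29 ± 0.18 (SE; edgeR adjusted p = 0.392). It was at 129 CPM in HFDfri 1 but at 221 to 263 CPM in the other HFDfri libraries, against 149 to 209 CPM in HFDfre. Aldh4a1 shares exon sequence with Gm21969 on the same strand, so its counts are uncertain.

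The promoter sequences of Prodh2, Oat and Bckdhb, which were lower without overlap, are shown beside that of Tat, the gene with the largest fold change. Cdo1, also lower without overlap, was left out of the sequences shown, and Cps1 had no entry. The sequences were taken from RefSeq on GRCm38.p6, in which 34 of the 43 genes had an entry, and end before the annotated start of the gene. Where a gene had several entries the one nearest that start is shown, while counts of genes with a motif take any entry. The Prodh2 stretch is chr7:30493408-30493621 (plus strand), that of Oat is chr7:132576399-132576648 (minus strand), that of Bckdhb is chr9:83924887-83925136 (plus strand) and that of Tat is chr8:109990186-109990435 (plus strand). Capitals mark matches, on either strand, to the CCAAT box CCAAT, the hexamer GTTAAT from the HNF1 site and the hexamer AGAACA from the glucocorticoid receptor site. These letters were chosen with the sequences in view.
Prodh2: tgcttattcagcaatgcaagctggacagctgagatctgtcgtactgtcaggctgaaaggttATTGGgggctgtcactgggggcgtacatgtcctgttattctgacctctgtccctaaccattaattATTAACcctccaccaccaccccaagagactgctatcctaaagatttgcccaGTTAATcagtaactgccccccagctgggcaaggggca
Oat: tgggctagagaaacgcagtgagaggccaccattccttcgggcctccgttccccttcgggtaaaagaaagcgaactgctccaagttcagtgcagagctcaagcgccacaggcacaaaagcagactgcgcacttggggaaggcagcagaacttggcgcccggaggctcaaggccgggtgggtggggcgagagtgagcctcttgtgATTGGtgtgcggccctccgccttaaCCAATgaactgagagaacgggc
Bckdhb: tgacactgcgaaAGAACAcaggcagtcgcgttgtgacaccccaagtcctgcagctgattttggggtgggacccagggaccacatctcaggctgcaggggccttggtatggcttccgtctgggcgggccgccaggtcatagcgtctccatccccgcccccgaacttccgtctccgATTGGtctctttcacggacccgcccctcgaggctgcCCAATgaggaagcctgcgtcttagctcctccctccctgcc
Tat: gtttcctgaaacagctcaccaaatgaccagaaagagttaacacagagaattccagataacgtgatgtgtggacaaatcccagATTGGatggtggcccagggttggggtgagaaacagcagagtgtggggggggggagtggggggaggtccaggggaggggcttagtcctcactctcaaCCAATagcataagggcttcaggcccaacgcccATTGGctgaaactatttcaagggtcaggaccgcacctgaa
Prodh2 held GTTAAT on both strands, 73 and 124 bases before its RefSeq start, a hexamer found in 6.43% of all 32851 promoters of 250 bases. CCAAT was present in all 4 sequences, against 33.8% of all promoters and 20 of the 34 genes with an entry. AGAACA was present in Bckdhb, against 16.1% of all promoters. The full HNF4 element CAAAGTCCA, the C/EBP element TTGCGCAA and the cyclic AMP response core TGACG were in none of the 4. No motif overlapped another. A match is a run of letters and was not tested as a binding site.

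In the urea cycle, Cps1 stood apart from the other members. It encodes carbamoyl phosphate synthetase, the enzyme that brings ammonia into the cycle and its main point of control. Cps1 was at 1215, 1489, 982, 1142 and 1305 CPM in HFDfre 1 to 5 and at 1345, 2322, 2371 and 1950 CPM in HFDfri 1 to 4. HFDfri 2, 3 and 4 were above every HFDfre library, and HFDfri 1 lay among the HFDfre libraries. The mean was 1227 ± 188 CPM (SD, n = 5) and 1997 ± 474 CPM (SD, n = 4). The log2 fold change of 0.70 ± 0.17 (SE), which is 1.63-fold, did not pass after adjustment (edgeR adjusted p = 0.0677). Cps1 passed in 2 of 20 alternatives, with DESeq2 (adjusted p = 0.00221) and without HFDfri 1 (edgeR adjusted p = 0.0159).

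The fold changes of the other enzymes were nearer 0. Otc, which joins carbamoyl phosphate to ornithine, had a log2 fold change of -0.17 ± 0.10 (SE). Ass1, which adds the nitrogen of aspartate, was at 2378 to 2956 CPM in HFDfre and at 1830, 2958, 2440 and 2843 CPM in HFDfri 1 to 4. Its log2 fold change was -0.02 ± 0.14 (SE). HFDfri 1 was below and HFDfri 2 just above the HFDfre range, with HFDfri 3 and 4 inside it. Asl and Arg1, which release arginine and then urea, were at -0.14 ± 0.13 and -0.15 ± 0.11 (SE). Nags, whose product activates the Cps1 enzyme, was at -0.14 ± 0.11 (SE). The edgeR adjusted p of these 5 genes ran from 0.383 (Otc) to 0.950 (Ass1). The carriers of the cycle, Slc25a15 for ornithine and Slc25a13 (citrin) for aspartate, had log2 fold changes of 0.23 ± 0.12 and 0.21 ± 0.14 (SE; edgeR adjusted p = 0.311 and 0.431), and 0.15 and 0.12 without HFDfri 2. Of the 8 urea cycle genes 3 were above 0 and 5 below, with a median of -0.08. That Cps1 differed from the other steps was not itself tested.

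**Figure D2:**
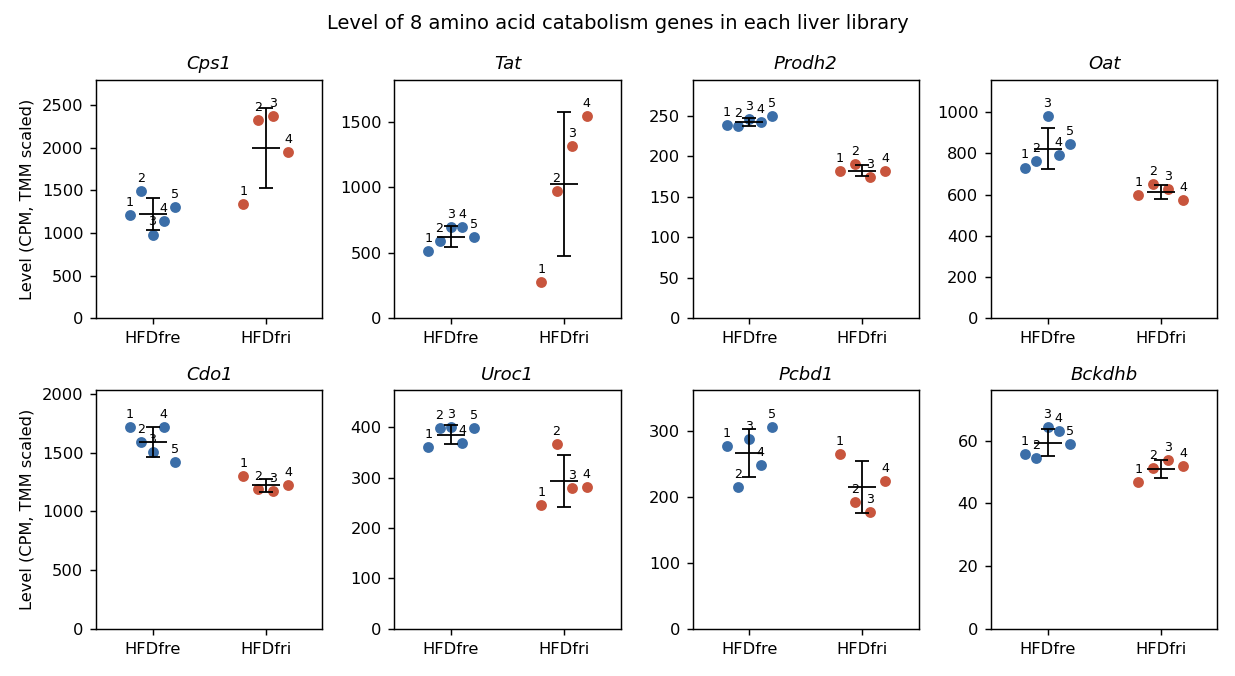
Each panel plots 1 gene, with its level in CPM from 0 on the vertical axis, a numbered point for each library and a black line with bars for the mean ± SD of the 5 HFDfre and 4 HFDfri libraries. Prodh2, Oat, Cdo1 and Bckdhb have all HFDfri points below all HFDfre points, and in Cps1 and Tat the point of HFDfri 1 lies apart from the other HFDfri points.

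Tyrosine and phenylalanine breakdown gave the largest single fold change and the widest spread. Tat encodes tyrosine aminotransferase, the hormone-induced enzyme that opens tyrosine breakdown. It was at 514, 588, 699, 696 and 623 CPM in HFDfre 1 to 5 and at 280, 970, 1314 and 1544 CPM in HFDfri 1 to 4. HFDfri 1 was the lowest of all 9 libraries and the other HFDfri libraries were the highest. The log2 fold change was 0.72 ± 0.35 (SE) with an edgeR adjusted p of 0.261. Without HFDfri 1 it was 1.02 ± 0.15 (SE; edgeR adjusted p = 0.0156), and without HFDfri 4 it was 0.45.

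Pcbd1, which regenerates the pterin cofactor of phenylalanine hydroxylase, was at 277, 215, 287, 249 and 306 CPM in HFDfre 1 to 5 and at 266, 192, 178 and 225 CPM in HFDfri 1 to 4. The groups overlapped, and the log2 fold change was -0.31 ± 0.14 (SE; edgeR adjusted p = 0.224). Hpd, the dioxygenase after Tat, was at 1669 to 2127 CPM in HFDfre and 1636 to 2081 CPM in HFDfri, with a log2 fold change of -0.03 ± 0.11 (SE). Hgd, Gstz1, Fah and Qdpr, which complete the pathway or recycle its cofactor, lay between -0.19 (Fah) and 0.08 (Hgd), none past the adjusted test. Of the 7 genes 3 were above 0 and 4 below.

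Among the serine and sulfur genes, Cdo1 was lower without overlap. Cdo1 encodes cysteine dioxygenase, which commits cysteine to taurine and sulfate. It was at 1717, 1593, 1506, 1720 and 1424 CPM in HFDfre 1 to 5 and at 1301, 1193, 1171 and 1226 CPM in HFDfri 1 to 4. The log2 fold change was -0.38 ± 0.10 (SE), with an edgeR adjusted p of 0.0790, and it passed with DESeq2 (adjusted p = 0.00245). Csad, the next enzyme towards taurine, was at 34.3 to 58.2 CPM in HFDfre and at 32.3, 48.4, 48.4 and 79.3 CPM in HFDfri 1 to 4, a log2 fold change of 0.27 ± 0.23 (SE). It rested on HFDfri 4, being -0.01 without that library and 0.43 without HFDfri 1. Cbs and Cth, which make cysteine from homocysteine, were at 0.21 ± 0.12 and -0.01 ± 0.13 (SE). Sds, the serine dehydratase of gluconeogenesis, was at 191, 220, 172, 179 and 147 CPM in HFDfre 1 to 5 and at 90.7, 198, 115 and 149 CPM in HFDfri 1 to 4. Its log2 fold change was -0.40 ± 0.20 (SE; edgeR adjusted p = 0.278), with overlapping groups, and was -0.25 without HFDfri 1 and -0.62 without HFDfri 2. Sds shares exon sequence with Plbd2 and Gm15690 on the opposite strand, and the use of strand in the counting is not given in the sources used here.

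In histidine breakdown the largest difference was at the middle step. Uroc1 encodes urocanase, the enzyme after the lyase Hal. Uroc1 was at 360, 399, 401, 369 and 398 CPM in HFDfre 1 to 5 and at 245, 366, 279 and 282 CPM in HFDfri 1 to 4. Only HFDfri 2 reached into the HFDfre range, by passing HFDfre 1. The log2 fold change was -0.39 ± 0.12 (SE; edgeR adjusted p = 0.103), which passed with DESeq2 (adjusted p = 0.0227) and without HFDfri 2 (edgeR adjusted p = 0.0352). Leaving out HFDfri 2, Uroc1 and Prodh2 were the 2 genes called, both lower, where 0.783% of all genes were called lower. Hal was at 0.05 ± 0.18 and Amdhd1, the step after Uroc1, at -0.05 ± 0.10 (SE) on the log2 scale. The difference between these steps was not tested.

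Branched-chain and lysine breakdown varied little. Bckdhb, a subunit of the branched-chain keto acid dehydrogenase, was at 55.9, 54.5, 64.4, 63.0 and 59.03 CPM in HFDfre 1 to 5 and at 46.8, 51.3, 53.7 and 51.8 CPM in HFDfri 1 to 4. The groups did not overlap, but the nearest libraries were less than 1 CPM apart, and the log2 fold change of -0.22 ± 0.08 (SE) did not pass (edgeR adjusted p = 0.167). Bckdha, the partner subunit, was at 217 to 265 CPM in HFDfre and 196 to 225 CPM in HFDfri (-0.16 ± 0.10, SE, on the log2 scale). Ivd of leucine breakdown was at 0.03 ± 0.09 and Aass, which opens lysine breakdown, at 0.13 ± 0.09 (SE). Of 18 other branched-chain genes tested, 2 were higher and 3 lower by an unadjusted p under 0.05. The shares over all genes were 11.4% and 9.79%. None of the 18 passed the adjusted test.

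The general nitrogen handlers and the glycine genes did not pass the adjusted test. Glud1, the glutamate dehydrogenase, was at 0.04 ± 0.09 and Gls2, the liver glutaminase, at -0.12 ± 0.12 (SE) on the log2 scale. Gls2 was at 204 CPM in HFDfri 1 and at 228 to 309 CPM in every other library. The aspartate aminotransferases Got1 and Got2 were at 0.10 ± 0.18 and -0.06 ± 0.09 (SE). Got2, at 472 to 495 CPM in HFDfri, had the smallest SD of log2 CPM there among the 43 genes. The alanine aminotransferase Gpt was at 199 to 280 CPM in HFDfre and at 140, 250, 213 and 239 CPM in HFDfri 1 to 4 (-0.16 ± 0.16, SE), and Gpt2 was at -0.06 ± 0.13 (SE). Of the glycine genes, Amt was at 13.8 to 20.8 CPM in HFDfre and at 16.1, 24.5, 24.8 and 19.0 CPM in HFDfri 1 to 4, a log2 fold change of 0.30 ± 0.15 (SE; edgeR adjusted p = 0.290). Its partners Gldc and Gcsh were at -0.07 ± 0.12 and 0.01 ± 0.08 (SE). Agxt, which detoxifies glyoxylate to glycine, was at 0.02 ± 0.13 (SE), with 171 to 262 CPM in HFDfre and 183 to 238 CPM in HFDfri. Gls2, Glul, Gstz1, Nags, Csad and Bckdha share exon sequence with a gene on the opposite strand.

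**Figure D3:**
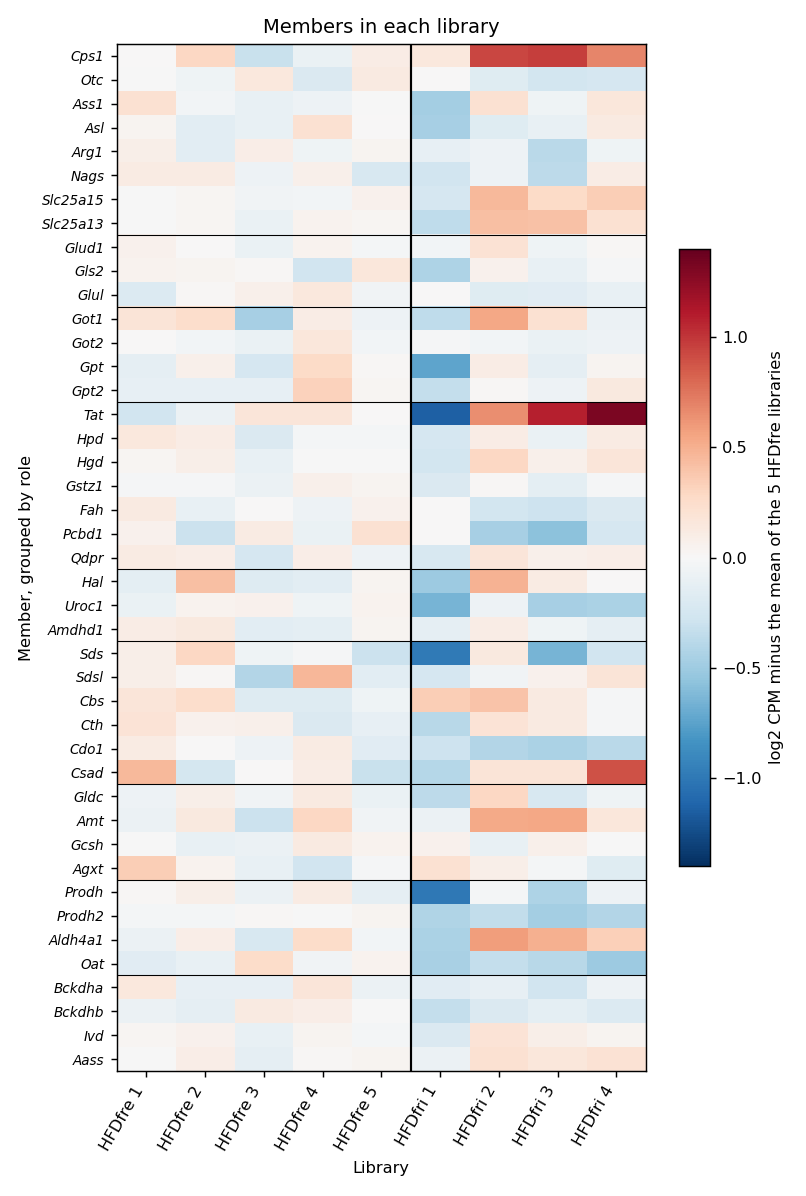
Rows are the 43 genes by role and columns the 9 libraries, and colour gives log2 CPM minus the mean of the 5 HFDfre libraries, red for higher and blue for lower. The column of HFDfri 1 is blue for most genes, with Tat and Sds among the deepest, while Cps1, Tat and Aldh4a1 are red in HFDfri 2, 3 and 4.

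The library HFDfri 1 differed from the other HFDfri libraries across these genes. It was the lowest of the 9 libraries for 21 of the 43 genes and the highest for 0, whereas it was the lowest for 17.3% and the highest for 15.6% of all tested genes. HFDfri 2 was the highest for 14 of the 43 genes and HFDfre 4 for 11, against 10.7% and 10.6% of all tested genes. The genes of HFDfri 1 lay at a median of -0.23 on the log2 scale from the mean of their group, and those of all tested genes at 0.00. The 8 periportal markers summed to 2717 CPM in HFDfri 1 and to 4217 to 4405 CPM in the other HFDfri libraries, against 3326 to 3668 CPM in HFDfre. Pck1, the gluconeogenic enzyme that carries much of that sum, was at 1119 CPM in HFDfri 1 and at 1694 to 2563 CPM elsewhere. The other periportal markers were split. Hsd17b13, Etnppl and Aldh1b1 were also lowest in HFDfri 1. There, Cyp2f2 (617 CPM) and Pigr (620 CPM) lay inside the HFDfre range, and Cdh1 (21.4 CPM) and Ctsc (57.3 CPM) were above every HFDfre library. Hepatocyte markers summed as a list were highest in HFDfri 1, at 119461 CPM against 86070 to 103505 CPM. Most of that sum was Alb, at 75721 CPM in HFDfri 1 and 52055 to 68986 CPM elsewhere. Apoa1, Trf, Serpinc1 and Fgb were also highest in HFDfri 1, while Ttr, Apob and Hnf4a were not. Whether these differences have a part in the levels of the amino acid genes was not tested.

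Without HFDfri 1, edgeR gave 8 of the 43 genes an adjusted p under 0.05, 5 higher and 3 lower, but the share of all genes so called also rose, to 7.65% (3.99% higher, 3.66% lower). The 5 higher genes were Cps1 (log2 fold change 0.84), Tat (1.02), Aldh4a1 (0.46), Slc25a15 (0.34) and Slc25a13 (0.34). The 3 lower genes were Cdo1 (-0.42), Oat (-0.43) and Prodh2 (-0.42). Their edgeR adjusted p ran from 0.0156 for Tat to 0.0425 for Oat. No overlap was then seen for 11 genes, 6 higher and 5 lower, where 17.9% of all genes had none (9.16% higher and 8.77% lower). The median over the 43 genes was -0.02.

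**Figure D4:**
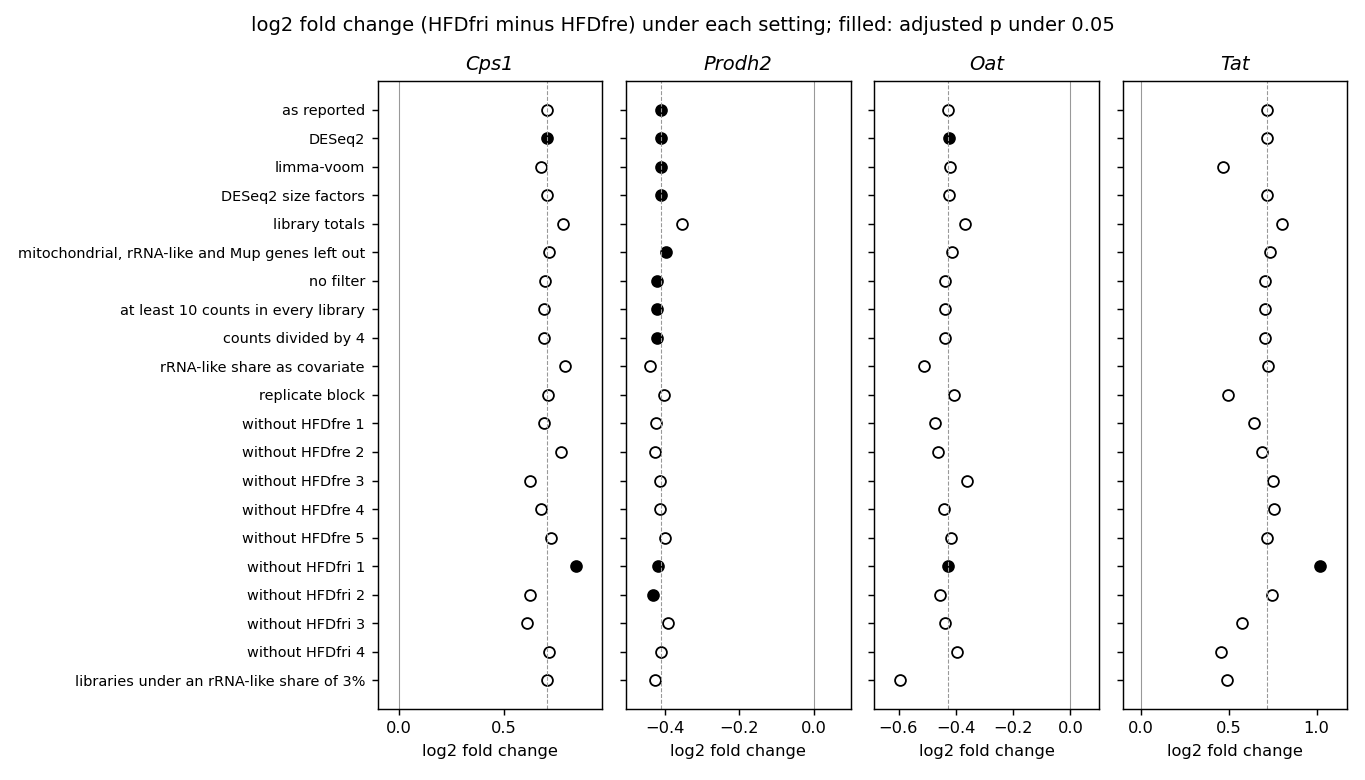
Each panel gives 1 gene, with the log2 fold change (HFDfri minus HFDfre) on the horizontal axis and a row for the reported fit and each alternative setting, filled where the adjusted p was under 0.05. The sign of all 4 genes stayed the same under the 20 alternatives run, while the filled points of Cps1, Oat and Tat are few.

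Other genes of amino acid breakdown, transport and control were taken from a list made by function. Of 98 tested, 58 were above 0 and 40 below (median 0.07 on the log2 scale), and 2 passed the adjusted test, 1 in each direction, where 49.1% of all genes were above 0 and 0.499% passed as higher and 0.556% as lower. Both genes act in peroxisomal or mitochondrial glyoxylate handling, next to Agxt and to the hydroxyproline pathway that Prodh2 opens. Hao1, the glycolate oxidase, rose by 0.52 ± 0.11 (SE) on the log2 scale (edgeR adjusted p = 0.0473), with means of 226 ± 14.8 CPM in HFDfre and 323 ± 47.2 CPM in HFDfri (SD). It was at 220, 228, 210, 221 and 249 CPM in HFDfre 1 to 5 and at 382, 288, 339 and 282 CPM in HFDfri 1 to 4. Hoga1, the last enzyme of hydroxyproline breakdown, fell by 0.40 ± 0.08 (SE) on the log2 scale (edgeR adjusted p = 0.0472), with means of 100.8 ± 6.06 CPM in HFDfre and 76.5 ± 4.77 CPM in HFDfri (SD). Hoga1 was at 92.4 to 110 CPM in HFDfre and 72.8 to 83.4 CPM in HFDfri. Each was called in 8 of 20 alternatives.

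By an unadjusted p under 0.05, 11 of these 98 genes were higher and 15 lower, against 11.4% and 9.79% of all genes. The next lowest p-values belonged to Acmsd and Aadat of tryptophan breakdown (log2 fold changes 0.85 and 0.42), Slc3a1 of cystine and basic amino acid transport (0.67) and the hepatocyte transcription factor Hnf4a (0.46). None of the 4 overlapped between the groups, and their edgeR adjusted p ran from 0.0507 to 0.0566. Hnf4a was at 302 to 356 CPM in HFDfre and at 489, 402, 509 and 400 CPM in HFDfri 1 to 4. It was high in HFDfri 1 too, where many of the amino acid genes were low. Of 17 tested transporters 12 were above 0, with a median of 0.19.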

How the data were processed

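RNA-seq was performed on total RNA of mouse liver from 9 libraries, 5 HFDfre and 4 HFDfri, grouped by their titles. The labels do not say that each library is 1 animal, so p-values measure the spread between these libraries. Per the study's methods and the submitters' processing notes, paired-end reads were aligned with HISAT2 and the notes also name StringTie and the build mm10. The library kit is named differently in the labels and in the methods. Versions, annotation and use of strand are not given in the sources used here. The deposited values were treated as estimated counts per gene, unscaled. They are whole numbers, so rounding changed none, but low values pile up at multiples of 4 (3990 values of 4 against 2172 of 3 and 1840 of 5), so that a count is not 1 read.

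Genes were kept with filterByExpr and compared as HFDfri minus HFDfre in edgeR 4.0.16 (R 4.3.3) by its quasi-likelihood F test after TMM scaling, with no covariate and Benjamini-Hochberg adjustment over the 14220 genes. The standard error is the fold change divided by the square root of F. CPM is TMM scaled, log2 CPM used a prior count of 2, and levels per kb used the union of exons in GENCODE M21 (GRCm38), which holds 96.5% of the identifiers. Alternatives were DESeq2 1.42.0, limma-voom (limma 3.58.1), other scalings and filters, counts divided by 4, the ribosomal RNA-like share as a covariate, the replicate number as a block, leaving out each library and, added after the data were seen, only the libraries under 3% of that locus. Values by library were given for genes past the adjusted or unadjusted threshold of 0.05 or without overlap and, in each role, for the highest level and the largest fold change. Others were named beside their pathway. The members and lists were chosen with earlier results of these data known. In counts simulated for the 14220 genes, the test found 64 of 100 genes altered by log2 1 and 9 of 100 altered by log2 0.5, and 2 of its 75 calls were false.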

Additional observations from a re-analysis of the deposited data

Results flagged for a closer look

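Within each group, 106 sets of values (the 43 genes and the means of their roles) were checked for a lone extreme library. This held for 1 set, where chance gives about 1 in 20, or 5.3. Arg1, the arginase that releases urea, had its lowest log2 CPM, 10.42, in HFDfri 3. HFDfri 1, 2 and 4 lay at 10.68 to 10.73, so that the gap made up 0.847 of the whole range. On the CPM scale this is 1371 against 1646 to 1702.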

How the results depend on the processing

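The number of the 43 genes past the adjusted threshold was 1 as reported, where 1.05% of all genes were called. It was 5 with DESeq2 (Cps1, Uroc1, Cdo1, Prodh2 and Oat), where 8.41% of the 12278 genes with an adjusted p were called. It was 0 with library totals and 0 with the ribosomal RNA-like share as a covariate, where 0.534% and 0.267% of all genes were called. In the 5 libraries under 3% of that locus it was 0, where 0.0138% of all genes were called. The number ran from 0 to 8 over the fits that each left out 1 library. Leaving out HFDfri 1 gave 8, HFDfri 2 gave 2 and each of the other 7 gave 0. The share of all genes called was 7.65%, 1.63% and 0.0426% to 0.363% in those fits, in that order. Those counts of 0 came with 5 (library totals), 7 (covariate), 4 (under 3%) and 6 to 8 (leaving out 1 library) genes at an unadjusted p under 0.05 by edgeR. The shares of all genes at that threshold were 17.3%, 19%, 9.67% and 13.6% to 21%, in that order. No sign was seen that the replicate numbers pair the libraries (correlations of deviations from -0.136 to 0.0813, over 0.1 for 0 of 4 pairs). Other pairings of the libraries were not examined. With the replicate block 0 of the 43 genes passed by edgeR, as did 0 of all 14075 genes tested. By an unadjusted p under 0.05 there were 8 of the 43, where 18% of all genes passed.

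The 7 genes at an unadjusted p under 0.05 became 4 within the 5 libraries under 3%, and ran from 6 to 15 when 1 library was left out. Over all genes the share was 21.2% as reported, 9.67% under 3% and 13.6% to 25.7% when 1 library was left out. The 4 genes without overlap became 2 with library totals (Fah and Cdo1, where 5.79% of all genes had none) and 10 under 3%, where 29.3% of all genes had none with 2 HFDfre and 3 HFDfri libraries. They ran from 4 to 11 when 1 library was left out, where 8.73% to 17.9% of all genes had none. The median log2 fold change of the 43 genes ran from -0.09 to 0.01 over the alternatives. With library totals it was 0.01 while that of all genes was 0.05, with 22 genes above 0 and 21 below.

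Of the 43 genes 26 kept their sign under all 20 alternatives and 17 did not. With library totals Ass1 was 0.0588 and Hpd 0.0439. With the covariate they were 0.0357 and 0.0447, and under 3% Ass1 was 0.0416, Hpd 0.109 and Got2 0.0120. Leaving out 1 library, Ass1 ran from -0.108 to 0.0935, Hpd from -0.0800 to 0.0271 and Agxt from -0.0576 to 0.107. The other 13 were Csad (-0.01 without HFDfri 4, 0.27 as reported), Nags (0.07 under 3%, -0.14 as reported) and, over all alternatives, Got1 (-0.08 to 0.33), Hal (-0.12 to 0.19), Cth (-0.08 to 0.09), Gldc (-0.21 to 0.04), Gpt2 (-0.13 to 0.03), Glud1 (-0.03 to 0.12), Ivd (-0.02 to 0.10), Qdpr (-0.03 to 0.17), Gcsh (-0.02 to 0.06), Amdhd1 (-0.11 to 0.01) and Sdsl (-0.13 to 0.24). With 5 and 4 libraries, changes the size of log2 0.5 were rarely recovered in simulated data, for genes drawn at random from all those tested. The drawn genes were not matched to the 43 genes, whose own rate was not estimated. Genes that did not pass are not shown to be alike in the groups.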
